A study of Mus musculus with 9 samples.

Results

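The RNA levels of 45 genes of the interferon response and of antigen presentation were followed through 9 polyadenylated RNA libraries. All were made from the mouse line J1, embryonic stem (ES) cells of strain 129S4/SvJae at passage 5 to 7. The genes were taken by symbol from a fixed list, and 45 of 45 were found among the 18504 named genes of the deposited table. The choice by symbol uses no measured value, but the list was drawn up with earlier results of these data known. The levels are FPKM, fragments scaled by transcript length and by library size, so levels of different genes are compared here per length.

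The libraries form 8 groups around Yap1, the transcriptional coactivator that the Hippo kinases hold in check. An overexpression library (Yap1_OE) had the control BirA. A pair labelled as knockouts (Yap1_KO1 and Yap1_KO2) had the control ESC. A knockdown library (Yap1_KD1, written Yap1_KD here) had a control named Control, here the ES knockdown control. ES cells that had been differentiated gave a control (dESC_control) and a knockdown (dESC_Yap1_KD1, written dESC_Yap1_KD here). All carried the same strain background, and the sources used here do not give how the cells were differentiated, engineered or depleted of Yap1, or whether feeder cells were used. Only the knockout group has 2 libraries, and nothing in the labels says that they came from separate clones. Every other comparison sets 1 library against 1, so it has no replicate check and carries no p-value, and "higher" and "lower" describe those libraries only.

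Interferons signal through JAK kinases to STAT proteins, which together with Irf9 and other interferon regulatory factors (IRF) bind short elements in the promoters of interferon-stimulated genes. The products of those genes include cytoplasmic RNA sensors, antiviral effectors, large GTPases and the machinery that cuts proteins into peptides, carries the peptides into the endoplasmic reticulum and loads them on MHC class I molecules. Pluripotent stem cells are known for a weak interferon response and low MHC class I on their surface, and both increase with differentiation. A few of these genes, among them the IFITM family, are known to be expressed by stem cells without interferon.

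The promoters of 6 members are printed because they belong to genes with large differences between libraries and show an interferon element of either class or none. Each stretch holds the 160 bases before the RefSeq transcription start (RefSeq sequences, build GRCm38.p6), 5′ to 3′ on the gene's strand. Capitals mark a match to GAAANNGAAA, the core of the interferon-stimulated response element (ISRE), or to TTCNNNGAA, the gamma-activated site (GAS), on either strand, and overlapping matches run together.
Gbp2, chr3:142620503-142620662, plus strand: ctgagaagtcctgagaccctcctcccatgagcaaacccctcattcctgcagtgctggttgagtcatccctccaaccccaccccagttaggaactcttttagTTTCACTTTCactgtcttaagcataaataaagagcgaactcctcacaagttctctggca
Gbp2b, chr3:142594687-142594846, plus strand: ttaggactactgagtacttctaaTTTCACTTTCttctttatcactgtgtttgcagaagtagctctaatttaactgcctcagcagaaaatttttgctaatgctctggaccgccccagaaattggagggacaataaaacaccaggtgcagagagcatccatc
Irgm1, chr11:48871421-48871580, minus strand: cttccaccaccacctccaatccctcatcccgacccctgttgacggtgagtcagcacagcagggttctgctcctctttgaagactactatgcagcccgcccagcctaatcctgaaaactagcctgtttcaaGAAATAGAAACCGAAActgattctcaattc
Isg15, chr4:156200819-156200978, minus strand: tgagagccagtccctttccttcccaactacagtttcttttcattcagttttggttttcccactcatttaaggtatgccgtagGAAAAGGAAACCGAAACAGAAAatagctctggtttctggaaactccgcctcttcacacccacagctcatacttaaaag
Psmb8, chr17:34198035-34198194, plus strand: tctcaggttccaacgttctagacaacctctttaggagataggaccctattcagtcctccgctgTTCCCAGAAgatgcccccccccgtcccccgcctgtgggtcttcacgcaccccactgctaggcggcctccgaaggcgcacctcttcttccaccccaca
Tap1, chr17:34187396-34187555, plus strand: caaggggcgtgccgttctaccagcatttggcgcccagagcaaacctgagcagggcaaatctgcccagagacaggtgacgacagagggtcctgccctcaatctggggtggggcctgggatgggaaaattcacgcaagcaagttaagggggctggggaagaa
Gbp2 and Gbp2b carry the ISRE core on the reverse strand, with the same capital letters at different distances (first base at -59 and -137 from the start). Irgm1 and Isg15 carry overlapping ISRE cores, Psmb8 carries a GAS letter match (first base at -97), and the Tap1 window holds neither motif. The Tap1 and Psmb9 starts lie 226 bases apart on opposite strands, so their windows overlap by 275 bases. The sources used here do not give whether the libraries were stranded.

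A promoter window (250 bases before to 50 bases after the start) was found for 39 of the 45 members, which gave 48 windows. Parp14, Usp18, Cd74, Nlrc5, Tap2 and Iigp1 had no entry in the table used. An ISRE core stood in the windows of 20 of the 39 members (51.3%), against 3.99% of 27025 genes with a window. By window the shares were 41.7% of the members' windows and 3.44% of all 32851. A GAS stood in those of 11 members (28.2%), against 9.55% of genes, and by window in 22.9% against 8.3%. The list holds genes known for their interferon response, so these shares only describe it. Igtp, Irf2, Bst2, Oas1a and Ifitm3 had both motifs.

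In undifferentiated ES cells the members ranged from strongly expressed to near silent. Of the 45, 16 stood at 5 FPKM or more in all 7 undifferentiated libraries, and 14 stayed under 1 FPKM in all 7. The IFITM genes, which encode membrane proteins that hinder virus entry, were among the highest. Over these libraries Ifitm2 ran from 467 to 918 FPKM, Ifitm1 from 225 to 415 and Ifitm3 from 55.8 to 124. Reads of these near-identical genes may be split between copies, so their single values are uncertain.

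Among the regulators, Irf1, an activator of interferon-stimulated and MHC class I genes, ran from 13.2 to 27.5 FPKM in the undifferentiated libraries. Irf3, which acts downstream of the nucleic acid sensors, ran from 10.5 to 16.3. Stat2 and Irf9, which act in the type I interferon response, ran from 6.21 to 12.6 and from 2.72 to 5.72. Irf8, best known from blood cells, differed more between libraries, at 4.66 FPKM in BirA, 1.72 in ESC and 6.12 in the ES knockdown control. Irf2, known mainly as a counterpart of Irf1, stayed at or under 0.113 FPKM, and Irf7 at or under 0.161. The sensor gene Ddx58, which encodes RIG-I, ran from 3.91 to 18.4 FPKM, whereas the sensor gene Ifih1, which encodes MDA5, stayed at or under 0.0496.

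Antiviral effectors were uneven. Bst2, which tethers budding virus particles, ran from 54.0 to 102 FPKM in undifferentiated cells, and Trim25, a ubiquitin ligase that acts on RIG-I, from 33.4 to 53.2. Oas1a, an oligoadenylate synthetase, ran from 5.42 to 10.2, and Ifi35 from 2.63 to 7.89. Parp14 and Ifit2 stayed under 3 FPKM. Isg15, the ubiquitin-like modifier, did not exceed 0.231 FPKM, and the exonuclease gene Isg20 did not exceed 0.311. Oasl2 was 0.569 FPKM in the overexpression library and at most 0.0887 in the other undifferentiated ones. Ifit1, Ifit3, Rsad2 and Usp18, which are among the most inducible interferon-stimulated genes, stayed at or under 0.199 FPKM. The GTPase genes Gbp2, Gbp2b, Gbp3 and Iigp1 did not exceed 0.486 FPKM outside the overexpression and differentiated libraries, while Igtp and Irgm1 stood between 0.767 and 4.19 FPKM.

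The antigen presentation genes were present at a moderate level. In undifferentiated cells the proteasome activator gene Psme1 was 64.7 FPKM in ESC, 69.9 in the ES knockdown control and 88.0 in BirA, and Psme2 ran from 6.68 to 11.97. Of the inducible catalytic subunits, Psmb10 ran from 18.5 to 34.9 FPKM, Psmb9 from 1.37 to 7.56 and Psmb8 from 0 to 1.98. Tapbp, or tapasin, which bridges MHC class I to the peptide transporter, ran from 7.995 to 11.8, and the transporter genes Tap1 and Tap2 stayed under 3. The class I heavy chain genes H2-K1 and H2-D1 ran from 11.3 to 33.2 and from 12.01 to 17.4, and their light chain B2m from 10.8 to 25.2. The nonclassical H2-T23 and the class I transactivator Nlrc5 did not exceed 0.268 and 0.137 FPKM in any library. Cd74, the invariant chain of MHC class II, ran from 2.15 to 10.1. H2 genes have near-identical relatives that reads can be shared with, and H2-Q6, a relative outside the list, was given values from 2.31e-05 to 0.505 FPKM, so single H2 values are uncertain.

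**Figure D1:**
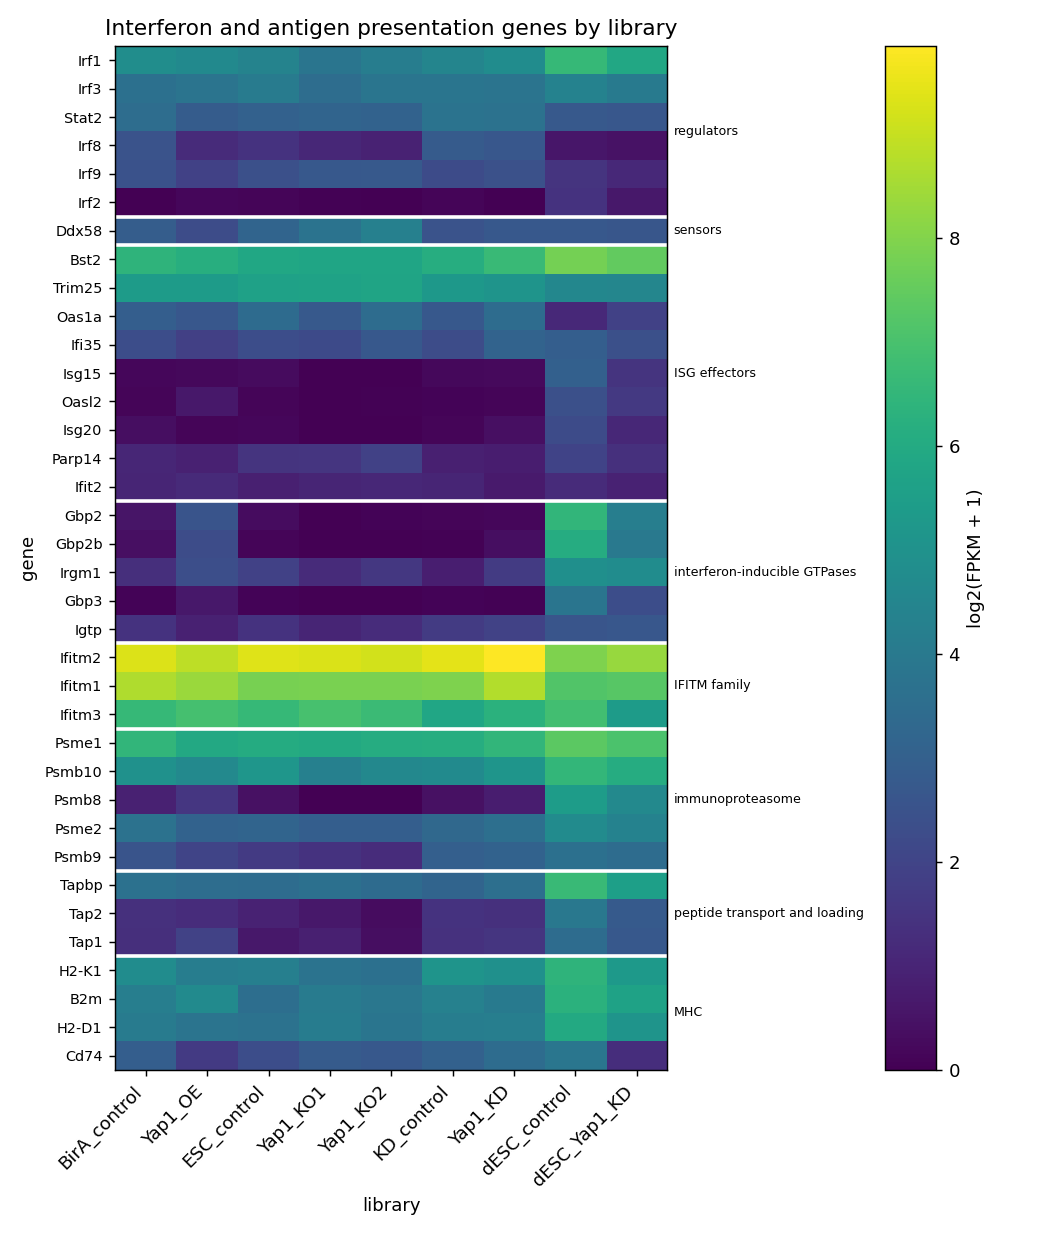
Heat map of log2(FPKM + 1) for the 36 members at 1 FPKM or more in a library (rows, grouped by role) in the 9 libraries (columns). The dESC_control column is the brightest for most rows, and Ifitm1, Ifitm2, Trim25, Oas1a and Irf8 are brighter in undifferentiated libraries.

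Most members had their highest level in dESC_control. Among the 36 members at 1 FPKM or more in a library, 25 (69.4%) had their highest value there, against 23.6% of 12708 genes. Isg15, Isg20, Irf2, Gbp3 and Oasl2 reached 1 FPKM only in differentiated libraries, so their highest value could only lie in those. Ifitm1, Ifitm2, Irf8, Oas1a, Irf9, Stat2 and Trim25 were lower in dESC_control than in every undifferentiated library. Yap1 itself was 78.0 FPKM in dESC_control, 37.4 in the ES knockdown control and 12.5 in dESC_Yap1_KD.

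Differences between 2 libraries were taken on log2(FPKM + 1). A gene entered where either library reached 1 FPKM, and a gene was counted as 2-fold apart at a difference of 1 or more on that scale. In dESC_control against the ES knockdown control, 36 members passed the level filter. Of these, 22 were 2-fold higher (12.9% of all 12319 genes were) and 4 were 2-fold lower (9.85% were). Their median difference was 1.31, against 0.04 over all genes, and over all 45 members without a filter it was 0.88. Because 10 members passed only through dESC_control, and all 10 were 2-fold higher, the filter favours higher counts. The 25 members at 1 FPKM or more in both libraries held 12 that were 2-fold higher and 3 that were 2-fold lower. The labels do not say that the ES knockdown control was the parent culture.

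The GTPase genes differed most. Gbp2, a guanylate-binding protein that attacks pathogen vacuoles, was 0.486 FPKM in BirA, 4.90 in Yap1_OE, 0.254 in ESC, listed at 0 in Yap1_KO1, 0.0661 in Yap1_KO2, 0.0932 in the ES knockdown control, 0.139 in Yap1_KD, 89.0 in dESC_control and 17.8 in dESC_Yap1_KD. Its neighbour in the same family, Gbp2b, was 0.320 in BirA, 3.91 in Yap1_OE, 0.0970 in ESC, listed at 0 in both knockout-labelled libraries, 0.0481 in the ES knockdown control, 0.278 in Yap1_KD, 67.4 in dESC_control and 14.6 in dESC_Yap1_KD. Both genes were thus high in differentiated cells, low but present with overexpressed Yap1, and near 0 elsewhere. Estimated fragments behind Gbp2 were 5 in the ES knockdown control and 4118 in dESC_control, so no ratio of levels is given. Their log2 differences of 6.36 and 6.03 are set by the pseudocount of 1, since that of Gbp2 was 8.85 with a pseudocount of 0.1 and 4.21 with 5.

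Irgm1, an immunity-related GTPase, was 1.53 FPKM in BirA, 4.19 in Yap1_OE, 2.70 in ESC, 1.31 in Yap1_KO1, 1.99 in Yap1_KO2, 0.767 in the ES knockdown control, 2.24 in Yap1_KD, 29.3 in dESC_control and 26.6 in dESC_Yap1_KD. Its levels in both differentiated libraries were nearly equal and far above the others. Gbp3 was 13.2 FPKM in dESC_control and 3.95 in dESC_Yap1_KD, against at most 0.571 before. Igtp was 5.09 and 5.30 FPKM in the differentiated pair and 2.31 in the ES knockdown control. It did not reach a 2-fold difference from that control on the log2(FPKM + 1) scale. Iigp1 stayed under 1 FPKM everywhere, with 0.694 in dESC_control. Gbp2, Gbp2b and Gbp3 are close relatives, and reads could be shared among them.

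The immunoproteasome replaces the standard catalytic subunits by inducible ones and so changes which peptides are made. Psmb8 was 0.886 FPKM in BirA, 1.98 in Yap1_OE, 0.374 in ESC, listed at 0 in both knockout-labelled libraries, 0.371 in the ES knockdown control, 0.716 in Yap1_KD, 42.1 in dESC_control and 23.6 in dESC_Yap1_KD. As a percentage of the FPKM of its standard counterpart Psmb5, Psmb8 was 0.215% in the ES knockdown control, 25.4% in dESC_control and 12.5% in dESC_Yap1_KD. Psmb10 was 7.81%, 27.4% and 18.6% of Psmb7 in those libraries. Psmb9 moved less, at 1.78%, 3.16% and 2.48% of Psmb6. None of 9 further proteasome genes examined, Psmb5, Psmb6 and Psmb7 among them, was 2-fold apart in any comparison. Psmb5 ran from 146 to 221 FPKM over all 9 libraries. The activator genes Psme1 and Psme2 were 163 and 25.95 FPKM in dESC_control, above every undifferentiated library.

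**Figure D2:**
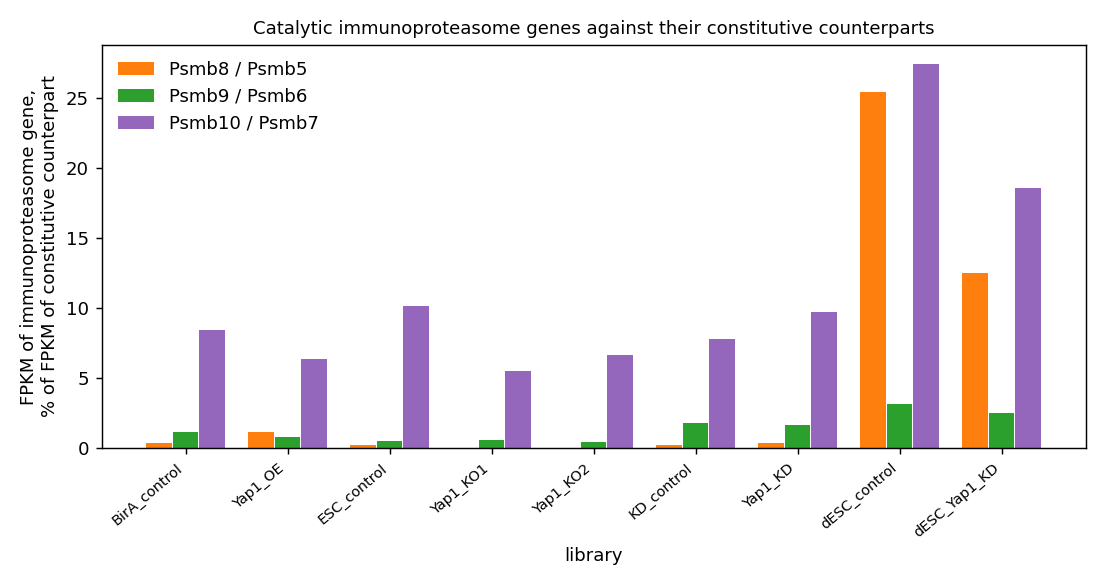
Bars give the FPKM of Psmb8, Psmb9 and Psmb10 as a percentage of the FPKM of Psmb5, Psmb6 and Psmb7 in each of the 9 libraries (1 library a bar, no error bars). Psmb8 reaches 25.4% in dESC_control and 12.5% in dESC_Yap1_KD and is at most 1.14% elsewhere.

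Peptide loading and class I genes stood higher together. Tapbp was 11.8 FPKM in BirA, 10.5 in Yap1_OE, 10.2 in ESC, 11.5 in Yap1_KO1, 9.94 in Yap1_KO2, 7.995 in the ES knockdown control, 11.0 in Yap1_KD, 102 in dESC_control and 46.1 in dESC_Yap1_KD. The 7 undifferentiated values lay close together and dESC_control was 12.8-fold above its ES counterpart. Tap1 and Tap2 were 10.2 and 14.6 FPKM in dESC_control, against 1.65 and 1.71 in the ES knockdown control, 6.20-fold and 8.54-fold apart. B2m was 17.7 FPKM in BirA, 25.2 in Yap1_OE, 10.8 in ESC, 16.1 in Yap1_KO1, 14.1 in Yap1_KO2, 19.1 in the ES knockdown control, 15.7 in Yap1_KD, 76.8 in dESC_control and 49.9 in dESC_Yap1_KD. H2-D1 was 61.8 FPKM against 16.8, and H2-K1 was 82.9 against 33.2. Of the roles, peptide loading had 3 of 3 members 2-fold higher, MHC 3 of 4 that passed the filter, and the immunoproteasome 4 of 5. Over all genes 12.9% were. The GTPases had 4 of 5, effectors 5 of 9 with 1 lower, and regulators 2 of 6 with 2 lower. The IFITM family had 1 of 3 with 1 lower, and sensors 0 of 1. Psmb8, the 4 GTPase genes, Irf2, Isg15, Isg20, Oasl2 and Parp14 passed only through dESC_control and could only be higher.

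Regulators and effectors were split. Irf1 was 27.5 FPKM in BirA, 24.5 in Yap1_OE, 20.4 in ESC, 13.2 in Yap1_KO1, 16.9 in Yap1_KO2, 21.5 in the ES knockdown control, 26.3 in Yap1_KD, 95.4 in dESC_control and 59.0 in dESC_Yap1_KD, so both differentiated values lay above every other one. Irf2 reached 1.73 FPKM in dESC_control. Irf8 was 0.501 FPKM against 6.12 in the ES knockdown control, and Stat2 was 5.68 against 12.6, which made these 2 the regulators that were 2-fold lower. Irf3 was 19.5 against 13.0 and Irf9 was 1.78 against 3.75, neither 2-fold apart on the log2(FPKM + 1) scale.

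Among effectors, Isg15 was at most 0.231 FPKM in undifferentiated libraries, 7.01 in dESC_control and 1.82 in dESC_Yap1_KD. Bst2 was 217 FPKM against 69.9 in the ES knockdown control, a 3.11-fold difference, and Oasl2, Isg20 and Parp14 reached 4.28, 3.72 and 2.91. Oas1a ran the other way, at 1.19 FPKM against 5.51, and Trim25 was 22.8 against 37.5. Ifitm2 was 245 against 690 FPKM and Ifitm1 144 against 246, whereas Ifitm3 was 114 against 55.8. Within the IFITM family 1 gene was therefore 2-fold higher and 1 was 2-fold lower.

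The motif matches were set beside these differences. Of the 15 members with an ISRE core that passed the filter, 10 were 2-fold higher, 3 were 2-fold lower and the median log2 difference was 1.32. Of the 18 without one, 10 were 2-fold higher, 1 was 2-fold lower and the median was 1.37. With a GAS, 6 of 11 were 2-fold higher and 2 were 2-fold lower, and without one 14 and 2 of 22. Over all genes 12.9% were 2-fold higher and 9.85% were 2-fold lower. Gbp2, Gbp2b, Gbp3, Irgm1, Isg15 and Irf2, all with an ISRE core, passed only through dESC_control, as did Isg20, Psmb8 and Oasl2 without one. These could only be higher there, so the filter favours higher counts in each group. Printed beside their values, the Tap1 window with neither motif belongs to a gene 6.20-fold higher, and the Isg15 window with overlapping cores to a gene that reached 7.01 FPKM.

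Most members were lower in dESC_Yap1_KD than in dESC_control. Of 35 members that passed the filter, 31 were lower than in dESC_control and 4 were higher, with a median log2 difference of -0.61 against -0.01 over all genes. Over all 45 members without a filter the median was -0.37. There were 10 members that were 2-fold lower (4.5% of all 11745 genes were) and none was 2-fold higher (1.54% were). All 10 were at 1 FPKM or more in both libraries. By direction alone, 11.4% of the 35 members were above 0 against 48.5% of all genes. Of the 35, 33 passed in both libraries. Irf2 and Ifit2 passed only through dESC_control, so these 2 could only be lower. The library dESC_control is part of this comparison and of the one with ES cells, so a high value in that library would raise one and lower the other, and both are read side by side only.

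Cd74 was the member with the lowest share of its control. It was 6.70 FPKM in BirA, 2.15 in Yap1_OE, 3.99 in ESC, 6.11 in Yap1_KO1, 5.50 in Yap1_KO2, 7.31 in the ES knockdown control, 10.1 in Yap1_KD, 13.5 in dESC_control and 1.47 in dESC_Yap1_KD. dESC_Yap1_KD thus held 10.9% of dESC_control's level and the lowest of the 9 values. dESC_control was only 1.84-fold above its ES counterpart for this gene.

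The guanylate-binding genes followed, with Gbp2 at 19.9%, Gbp2b at 21.6% and Gbp3 at 30.0% of dESC_control. Their levels of 17.8, 14.6 and 3.95 FPKM in dESC_Yap1_KD still lay above every undifferentiated library. Isg15 and Isg20 were at 25.98% and 31.3%. For peptide loading, Tap2 was at 40.9%, Tapbp at 45.1% and Tap1 at 54.4%. The class I genes H2-K1, H2-D1 and B2m were at 47.8%, 53.9% and 64.9%, and Irf1, their activator, was at 61.8%.

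The remaining members varied in their share. Irgm1 was at 91.0%, Stat2 at 95.04% and Trim25 at 96.6% of dESC_control. All 5 immunoproteasome genes were lower and none was 2-fold lower, with Psmb8 at 56.0% and Psmb10 at 74.4%. Among genes of low level Irf2 was at 32.6%, Oasl2 at 48.3% and Parp14 at 53.9%, none 2-fold lower on the log2(FPKM + 1) scale. Oas1a was higher, at 2.71 against 1.19 FPKM, as was Ifitm2, at 320 against 245. Ifitm3 was 96.5 FPKM in BirA, 120 in Yap1_OE, 96.9 in ESC, 124 in Yap1_KO1, 105 in Yap1_KO2, 55.8 in the ES knockdown control, 77.2 in Yap1_KD, 114 in dESC_control and 41.8 in dESC_Yap1_KD. Its value in dESC_Yap1_KD, 36.6% of the control, was the lowest of the 9, next to the ES knockdown control.

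**Figure D3:**
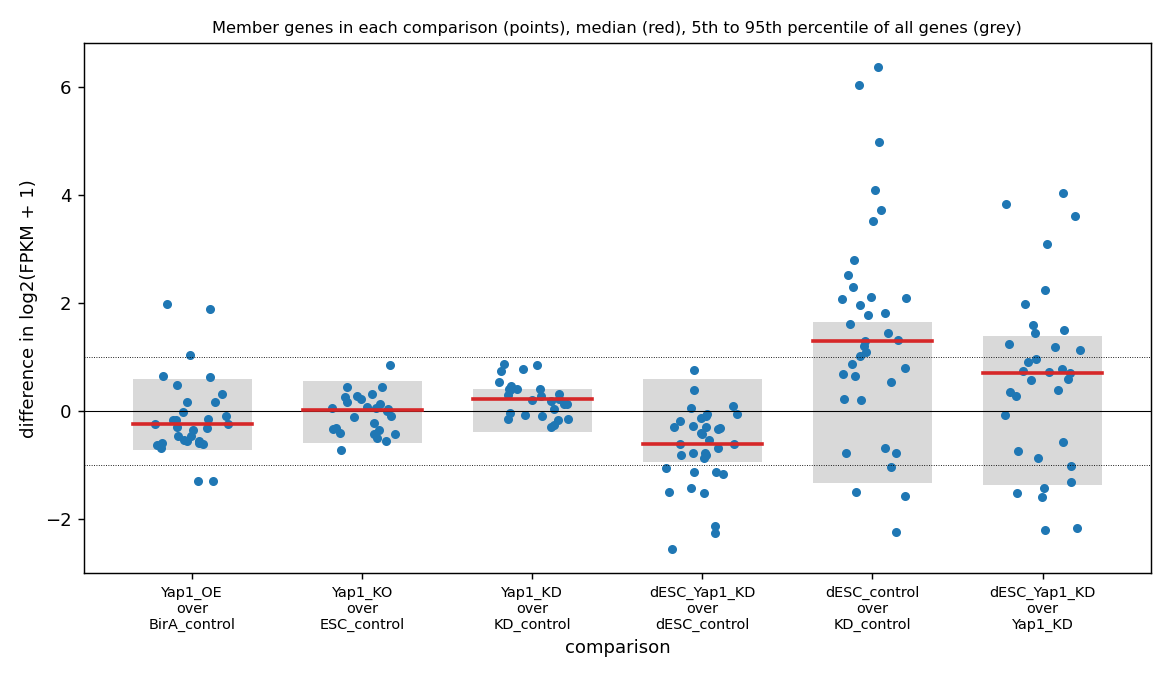
Each point is a member that passed the level filter, placed by its difference in log2(FPKM + 1) in 6 comparisons. The red line is the members' median, the grey box spans the 5th to 95th percentile of all genes, and dotted lines mark 2-fold. The members' median is 1.31 for dESC_control over KD_control and -0.61 for dESC_Yap1_KD over dESC_control.

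The libraries dESC_Yap1_KD and Yap1_KD were also compared, which was added after the data were seen. Of 34 members that passed the filter, 12 were 2-fold higher (10.2% of all genes were) and 7 were 2-fold lower (10.1% were), with a median of 0.71 against 0.01. Of the 34, 8 passed only through dESC_Yap1_KD, and 6 of these were among the 12. Among the 25 that passed in both libraries, 6 were 2-fold higher and 6 were 2-fold lower. Gbp2, Psmb8, Irgm1, Tapbp, B2m, Tap1, Tap2 and Irf1 were among the 12, with Tapbp at 46.1 against 11.0 FPKM and B2m at 49.9 against 15.7. H2-K1, at 39.6 against 29.9, and Psmb10, at 66.6 against 33.8, were not. Cd74 was 2-fold lower, at 1.47 against 10.1, together with Irf8, Oas1a, Ifitm1, Ifitm2, Irf9 and Stat2. No test compares this difference with the one in control cells.

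Markers of cell state and of other cells also differed between these libraries, in differing directions. The summed level of 10 ES cell markers was 4621 to 6649 FPKM in undifferentiated libraries, 2207 in dESC_control and 3308 in dESC_Yap1_KD. Of the 10, 7 were 2-fold lower in dESC_control than in the ES knockdown control, and 3 (Sox2, Esrrb and Utf1) were 2-fold higher in dESC_Yap1_KD than in its control. The 10 fibroblast markers, which a layer of feeder cells would bring, summed to 7.73 to 40.6 FPKM in undifferentiated libraries, 11.7 in dESC_control and 9.55 in dESC_Yap1_KD. In undifferentiated libraries most of it was Thy1, while Dcn, Lum and Fap were listed at 0 in all 7. The collagen gene Col1a1 was 1.06 FPKM in the ES knockdown control, 5.74 in dESC_control and 0.444 in dESC_Yap1_KD. Thy1 ran the other way, at 22.3, 3.40 and 8.21 FPKM, and Pdgfrb was 2.75, 1.22 and 0.507. The 10 immune cell markers found summed to 17.3 to 41.2 FPKM in undifferentiated libraries, 12.1 in dESC_control and 20.8 in dESC_Yap1_KD, mostly Cd68, with Ptprc and Lyz2 listed at 0 in both differentiated libraries. The part of the ES cell and fibroblast markers in the results was not tested, and fewer cells of a type and less RNA per cell cannot be told apart in bulk RNA.

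In the overexpression library Gbp2, Gbp2b and Irgm1 were higher than in BirA and most other members were lower. Yap1 was 139 FPKM in Yap1_OE and 46.7 in BirA. Of 31 members that passed the filter, 3 were 2-fold higher (1.36% of all 11509 genes were) and 2 were 2-fold lower (2.14% were). Of the 31, 22 were below their control, and the median was -0.25 against 0.02 over all genes. Over all 45 members without a filter it was -0.083. By direction, 29.0% of the members and 52.4% of all genes were above 0. These 2-fold counts rest on genes of low level, since with a pseudocount of 5 FPKM no member was 2-fold apart in either direction.

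The members 2-fold higher were Gbp2, at 4.90 against 0.486 FPKM, Gbp2b, at 3.91 against 0.320, and Irgm1, at 4.19 against 1.53. Estimated fragments were 258 against 17 for Gbp2 and 239 against 13 for Gbp2b. Gbp2, Gbp2b and Psmb8 passed the filter only through the overexpression library, and of the 26 members that passed in both libraries 1 (Irgm1) was 2-fold higher and 2 were 2-fold lower. With the GC trend removed Irgm1 had a log2 difference of 0.98, just short of 2-fold. Psmb8, at 1.98 against 0.886, and Tap1, at 2.87 against 1.498, were higher by less than 2-fold on the log2(FPKM + 1) scale, and B2m was 25.2 against 17.7. These levels were small beside dESC_control, where Gbp2 was 89.0 and Psmb8 42.1 FPKM.

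Cd74 and Irf8 were 2-fold lower with overexpression, Cd74 at 2.15 against 6.70 FPKM and Irf8 at 1.32 against 4.66. Against the other undifferentiated controls (1.72 FPKM in ESC and 6.12 in the ES knockdown control) the log2 difference of Irf8 was -0.92, short of 2-fold. H2-K1 was 17.1 against 26.5 FPKM and Psmb10 24.1 against 30.95. The regulators Irf1, Stat2 and Irf9 were 24.5, 6.21 and 2.72 FPKM against 27.5, 10.6 and 4.57. No IFITM gene was 2-fold apart. ES cell markers were lower in 10 of 10 cases in this pair, with none 2-fold apart, and the part of that difference in the result was not tested.

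Overexpression shares no library with the differentiated comparisons, so its values can be set against theirs. Across 31 members, which are not independent replicates, the differences in overexpression and in dESC_control against ES cells had a Pearson correlation of 0.777 and a Spearman correlation of 0.59. The same values over 11427 genes were 0.646 and 0.574. The 9 members above 0 with overexpression were also above 0 in dESC_control, 7 were below 0 in both, and 15 were below 0 with overexpression and above 0 in dESC_control. Opposite signs thus made up 48.4% of members, more than the 30.1% of all genes. Against dESC_Yap1_KD the correlations over 30 members were -0.385 and -0.301, beside -0.252 and -0.16 over 11031 genes. Those 9 members were below 0 in dESC_Yap1_KD, but so were 17 of the members below 0 with overexpression, and 4 were below and then above 0. Opposite signs made up 43.3% of members and 54.7% of all genes. Gbp2 and Gbp2b had the highest differences both with overexpression and in dESC_control, and no correlation was computed without them. With Psmb8 they passed the overexpression filter only through Yap1_OE, so they could only be above 0 there. The comparisons of dESC_control and of dESC_Yap1_KD share the library dESC_control, so these correlations are not separate checks. Cd74, the lowest with overexpression, was above 0 in dESC_control (0.80) and below 0 in dESC_Yap1_KD (-2.55).

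**Figure D4:**
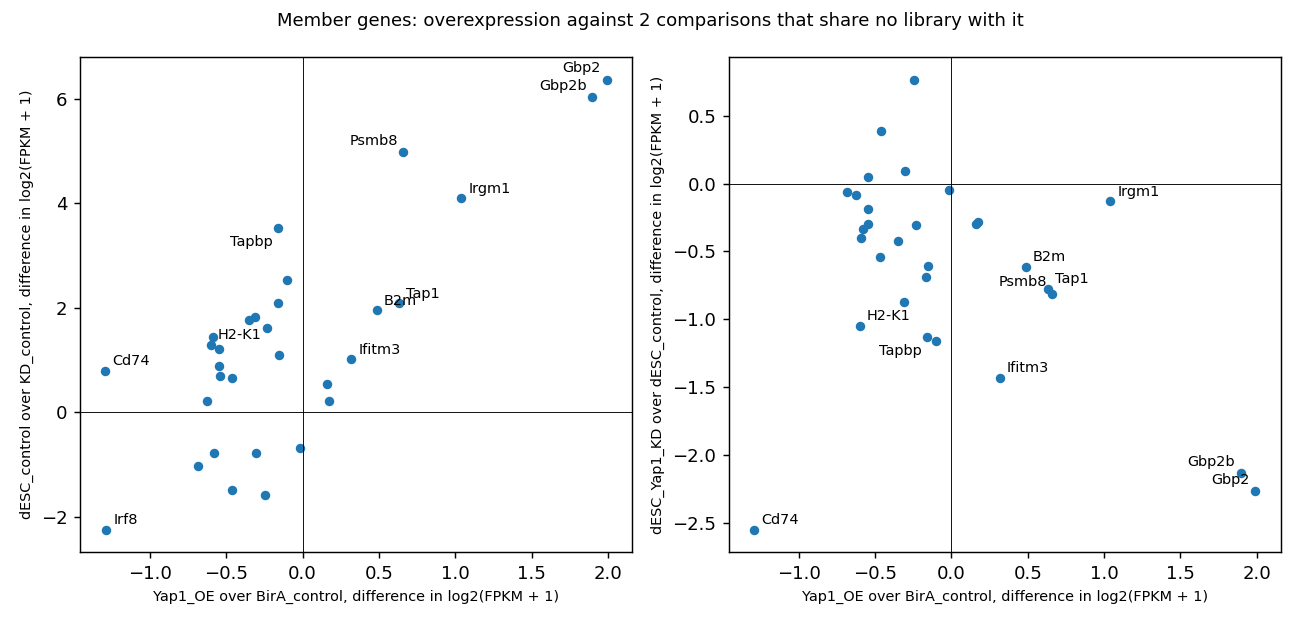
Each point is a member, with its log2(FPKM + 1) difference for Yap1_OE over BirA_control on the horizontal axis of both panels. The vertical axis is dESC_control over KD_control on the left (31 members) and dESC_Yap1_KD over dESC_control on the right (30 members). Gbp2 and Gbp2b lie at the upper right on the left and at the lower right on the right.

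Knockdown of Yap1 in undifferentiated cells left no member 2-fold apart on the log2(FPKM + 1) scale. Yap1 was 4.55 FPKM against 37.4. Of 27 members that passed the filter, none was 2-fold higher (0.204% of all 11750 genes were) and none was 2-fold lower (0.238% were). With so few of all genes 2-fold apart, these counts do not set the members apart. Among them 19 were above the control and 8 below, with a median of 0.22 against 0.01, and 70.4% of members were above 0 against 51.5% of all genes. Of the 27, 25 passed in both libraries. Irgm1 passed only through the knockdown and could only be higher, and Ifit2 passed only through the control and could only be lower. The members farthest from 0 were higher in the knockdown. Irgm1 was 2.24 against 0.767 FPKM, Ifi35 was 7.89 against 3.92, Oas1a was 10.2 against 5.51 and Ifitm1 was 415 against 246. Against the mean of the other 2 undifferentiated controls the log2 difference was 0.083 for Irgm1 and 0.29 for Oas1a, beside 0.87 and 0.78 against the own control.

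Antigen presentation genes differed by less than 2-fold in that pair, in both directions. H2-D1 was 17.4 against 16.8 FPKM, H2-K1 29.9 against 33.2, B2m 15.7 against 19.1 and Tap1 1.89 against 1.65. Tapbp, at 11.0 against 7.995, and Cd74, at 10.1 against 7.31, were higher, each by 0.41 on the log2 scale. All 4 immunoproteasome genes that passed the filter were above the control, with Psmb10 at 33.8 against 25.5. Guanylate-binding genes stayed near 0 in both libraries.

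The knockout-labelled libraries kept Yap1 RNA, at 57.3 FPKM in Yap1_KO1 and 27.6 in Yap1_KO2 against 65.4 in ESC, so directions here are those of the libraries as labelled. The filter was passed by 26 members, 13 with a mean above ESC and 13 below, and the median was 0.02. Against the mean of the other 2 undifferentiated controls that median was -0.25. By limma with Benjamini-Hochberg adjustment at 0.05 over all genes, 0 of 26 members were called, beside 0.419% of 11444 genes. At an unadjusted p under 0.05 there were 6 of the 26 members, a share no higher than the 25.8% of all genes, so their values are given as a description only. That fit has 1 residual degree of freedom and rests on the spread of the knockout-labelled pair, which may be technical.

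The 6 members were 3 higher and 3 lower genes. Ddx58 was 12.4 FPKM in Yap1_KO1 and 18.4 in Yap1_KO2 against 7.97 in ESC, a log2 change of 0.85 (SE 0.23, Benjamini-Hochberg adjusted p = 0.101 by limma). Psmb10 was 18.5 and 23.3 against 34.9, a log2 change of -0.72 (SE 0.16, Benjamini-Hochberg adjusted p = 0.0821 by limma). H2-K1 was 12.5 and 11.3 against 18.01 FPKM. B2m was 16.1 and 14.1 against 10.8, Cd74 was 6.11 and 5.50 against 3.99, and Irf3 was 10.5 and 13.3 against 16.3. Differences in this comparison followed the GC content of the transcripts across all genes, with a Spearman correlation of -0.593, and with that trend removed limma still called 0 of 26 members.

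A joint limma fit of the knockout-labelled and knockdown arms in ES cells, each against its own control, also called 0 of 28 members, beside 0.0333% of 11997 genes. It has 2 residual degrees of freedom, and the lone libraries are assumed to vary like the pair. An unadjusted p under 0.05 was given to 4 members and to 7.64% of all genes. The members were Cd74 (log2 change 0.43), Ddx58 (0.58), Ifitm3 (0.33) and H2-K1 (-0.38), and the lowest Benjamini-Hochberg adjusted p from limma was 0.522, for Cd74.

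Genes of the pathway outside the member list were read from lists of ligands, receptors, sensors and further targets. Of 10 interferon genes, Ifnk and Ifnz were found, Ifnz listed at 0 in all libraries and Ifnk at 0.166 FPKM or less, and the others were not analysed here. All 12 receptor and kinase genes passed the filter in the ES knockdown pair. Ifngr1, the ligand-binding chain of the interferon gamma receptor, was 6.73 FPKM in dESC_control, 4.14 in dESC_Yap1_KD and 2.44 in the ES knockdown control. Socs1, a feedback inhibitor of JAK kinases, was 13.9, 8.17 and 5.13 FPKM in these libraries, and Socs3, another inhibitor, was 5.87, 1.70 and 36.9. In dESC_Yap1_KD 12 of 12 genes of this list were below dESC_control, where 48.5% of all genes were above 0. Of the 12, 1 (Socs3) was 2-fold lower, as were 4.5% of all genes.

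Further targets were mixed. Of 33 other interferon-stimulated genes that passed the filter, 8 were 2-fold higher and 7 were 2-fold lower in dESC_control than in the ES knockdown control, beside 12.9% and 9.85% of all genes. Cxcl10, a chemokine gene, was 35.5 FPKM against 0.563 and 7.11 in dESC_Yap1_KD, log2 differences of 4.55 and -2.17. Parp10 was 10.1 FPKM against 0.326 and stayed at 6.95 in dESC_Yap1_KD. Phf11d ran the other way, at 0.921 against 13.7 FPKM. Some of the higher genes, Cxcl10 and Parp10 among them, passed only through dESC_control and could only be higher. Most of the lower genes, Phf11d among them, passed only through the ES knockdown control and could only be lower. Both counts thus depend on the filter. In dESC_Yap1_KD 3 of 26 (Ube2l6, Cxcl10 and Zc3hav1) were 2-fold lower than in dESC_control and 1 (Phf11d) was 2-fold higher. For all genes these shares were 4.5% and 1.54%. Ube2l6 passed there only through dESC_control, and Phf11d only through dESC_Yap1_KD.

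Of 19 further antigen presentation genes that passed the filter, 4 were 2-fold higher and 3 were 2-fold lower in dESC_control, against the same background. Erap1 and Tapbpl, among the higher genes, passed only through dESC_control. Cd1d1, among the lower, passed only through the ES knockdown control. The filter fixed the direction of such genes. Erap1, the peptidase that trims peptides for class I, was 11.9 FPKM against 0.308, and 10.1 in dESC_Yap1_KD. Tapbpl, a relative of tapasin, was 8.88 against 0.786, and 6.91 in dESC_Yap1_KD. These 2 genes kept most of their level in dESC_Yap1_KD, while Tapbp was at 45.1%. Of the 18 genes of this list that passed the filter in the differentiated pair, 14 were below dESC_control and 4 were above. Their median log2 difference was -0.28. Only H2-Q7 was 2-fold lower, as were 4.5% of all genes, and none was 2-fold higher. Of 18 nucleic acid sensor and adaptor genes, 11 passed the filter for dESC_control against the ES knockdown control. There 2 were 2-fold higher (Myd88 at 10.4 against 3.68 FPKM, and Ticam1) and 2 were 2-fold lower (Aim2 at 1.29 against 4.96 FPKM, and Dhx58). Over all genes 12.9% were 2-fold higher and 9.85% were 2-fold lower, and counts of 2 among 11 genes are too small to set this list apart. Ticam1 passed only through dESC_control and Dhx58 only through the ES knockdown control, so the filter fixed their directions. The knockdown in ES cells left no gene of any of these lists 2-fold apart on the log2(FPKM + 1) scale. In the knockout-labelled libraries limma called none of them.

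Depth limited the low members. The depth estimated from the steps between low FPKM values was 9.19 to 22.3 M (mega) fragments per library, so a 2 kb transcript at 1 FPKM was seen about 18.4 times in Yap1_KO1 and 44.6 times in the ES knockdown control. Differences under 1 FPKM in a gene such as Isg15, with 2 estimated fragments in the ES knockdown control and 79 in dESC_control, were not read as ratios. The 9 members under 1 FPKM in all libraries were H2-T23, Ifih1, Ifit1, Ifit3, Iigp1, Irf7, Nlrc5, Rsad2 and Usp18. A value of 0 in this table may be a failed estimate and is given as listed at 0.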

How the data were processed

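The authors deposited 1 table of gene-level FPKM values for the 9 libraries. TopHat2, Cuffdiff and the build mm9 are named in the submitters' processing notes; versions, annotation and strandedness were not given there. Since the file names no unit, FPKM was taken from Cuffdiff's usual output. Of 23277 rows, 4746 blank rows and 27 with a symbol turned into a date were left out, and 173 small RNA rows were kept out of tests and counts, which left 18331 genes. Every column was matched to a sample by title. Log2 differences were taken on log2(FPKM + 1) for genes that reached 1 FPKM in a library compared. The knockout-labelled and joint fits used limma 3.58.1 (R 4.3.3, trend option, Benjamini-Hochberg adjustment), tested on simulated data. Depth and fragments per gene were estimated from the steps between low FPKM values, with 191 genes setting the scale, so Cuffdiff's own scaling is part of them. GC content came from GENCODE transcripts and promoter windows from RefSeq, both GRCm38, and no mm9 coordinate is given. Alternatives changed the pseudocount (0.1, 5), the filter (none, 5 FPKM), the fold (1.5), the small RNA rows, the centring, the GC trend, the control libraries and, for the knockout-labelled pair, left out 1 library. Named members reached 5 FPKM in a library or were 2-fold from a control; from each further list up to 4 genes with the largest differences at 5 FPKM or more were named. Dhx58, Ticam1, Ube2l6, Zc3hav1, Ifnk, Ifnz, H2-Q6, Cd1d1 and the low members were named outside that rule, after their values were seen. Members and lists were chosen with earlier results of these data known.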

Additional observations from a re-analysis of the deposited data

Results flagged for a closer look

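Of the 26 members that passed the level filter in both knockdown comparisons, 15 (57.7%) had opposite signs in ES cells and in differentiated cells, as had 42.1% of all genes. In 3 of them the direction differed with a difference of at least 2-fold in differentiated cells, each above its own control in ES cells. The share of all genes with such a pair of differences was not counted, so these 3 are a description only. Tapbp had a log2 difference of 0.41 in ES cells and -1.13 in differentiated cells. Ifitm3 had 0.46 and -1.43, and Cd74 had 0.41 and -2.55. Each value compares 1 library with 1, so the difference between the cell states was not tested.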

How the results depend on the processing

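Counts of members have no direction, so they could not reverse under the alternatives run. Among the medians of members only the knockout-labelled one, near 0, changed sign. It was below 0 without a filter, against other controls and without Yap1_KO2. The counts of members called by limma were 0 in the knockout-labelled and joint fits under every alternative run, while genes called overall ranged from 0 (no filter) to 388 (filter at 5 FPKM) in the first and from 0 to 96 (without Yap1_KO1) in the second, beside 48 and 4. Without 1 of the pair the knockout fit has no residual degrees of freedom and was not run. With pseudocount 5, overexpression had 0 members 2-fold higher and 0 lower, dESC_Yap1_KD 6 lower with a median of -0.34, dESC_control 2 lower with a median of 0.92, and dESC_Yap1_KD against Yap1_KD 7 higher and 3 lower with a median of 0.39. With pseudocount 0.1, 1 member was 2-fold higher in each knockdown comparison, and dESC_control's median was 1.58. With a filter at 5 FPKM, overexpression had 0 higher and 1 lower. Without a filter the medians were -0.37 for dESC_Yap1_KD, 0.88 for dESC_control and 0.43 for dESC_Yap1_KD against Yap1_KD. Against the other undifferentiated controls overexpression had 1 lower, and the knockout-labelled median was -0.25. At 1.5-fold, overexpression had 5 higher and 6 lower, the ES knockdown 4 higher, dESC_Yap1_KD 1 higher and 18 lower, dESC_control 7 lower, and dESC_Yap1_KD against Yap1_KD 19 higher. The causes were not tested. Among values of single named genes, 39 moved by more than the spread between the knockout-labelled libraries (0.20 on the log2 scale) and 103 did not. A change of the filter cannot alter the value of a single gene, and such entries are among the 103. No paired analysis was possible because only the knockout-labelled group has more than 1 library. Low FPKM values rest on few fragments, and a pair of single libraries cannot separate Yap1 from differences between cultures.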
